A study of Mus musculus with 42 samples.

Results

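The comparison described here set uterine tissue-resident NK (trNK) cells of gestational day 6.5 (gd6.5) against those of virgin mice, across all expressed genes. It was made up of every bulk RNA-Seq count table labelled trNK and virgin or gd6.5, which gave 4 of the 34 bulk count tables, in a series of 42 samples. The 2 virgin libraries (virgin 1 and virgin 2) and the 2 gd6.5 libraries (gd6.5 1 and gd6.5 2) came from wild-type C57BL/6 females of 8 to 12 weeks, with no treatment in vivo or in vitro, and the day of the copulation plug was counted as gd0.5. All were sorted as live CD45+NK1.1+NKp46+CD49a+CXCR6- lymphocytes of the uterus. The 2 libraries of gd8.5 cells, sorted alike, entered the fit so that 3 groups of 2 shared one estimate of the spread. The sources do not say how many animals went into a library, or whether numbered libraries came from separate animals, so p-values measure only the spread between these libraries. The question was which genes differ in level between uterine trNK cells of virgin mice and those of early decidualization.

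NK cells are innate lymphocytes that kill target cells by releasing perforin and granzymes and that secrete cytokines such as interferon gamma. The trNK cells of the uterus carry the integrin CD49a and stay in the tissue. When the endometrium decidualizes after implantation they multiply, fill with granules and take part in the remodelling of the spiral arteries that feed the placenta.

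The trNK label was checked against its markers first. *Ncr1*, which encodes the sorting marker NKp46, was read at 992 and 979 RPKM (reads scaled to gene length and library size) in virgin 1 and virgin 2, and at 531 and 493 RPKM in gd6.5 1 and gd6.5 2. *Klrb1c* (NK1.1) lay between 112 and 199 RPKM, *Eomes*, the transcription factor that sets NK cells apart from ILC1s, between 33.9 and 66.0 RPKM, and *Itga1* (CD49a) between 9.60 and 14.5 RPKM in these 4 libraries. *Cxcr6*, whose product the gate excluded, stood at 15.0 RPKM in virgin 1 and 0.683 RPKM in virgin 2, and at 16.2 and 7.59 RPKM at gd6.5. Its transcript was thus absent from none of the 4 libraries, and in virgin 1 and gd6.5 1 it exceeded every *Itga1* level.

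Markers of other cell types were uneven between the libraries. Of 7 erythrocyte markers, 3 passed 1 RPKM in virgin 1 and 5 in virgin 2, with summed levels of 12.8 and 224 RPKM, while 0 passed at gd6.5, where *Hbb-bs* was at 0. Of 14 macrophage and monocyte markers, 6 or 7 passed 1 RPKM in each library, with sums of 237 and 87.1 RPKM in the virgin libraries and 40.5 and 62.9 RPKM at gd6.5. *Csf1r* was at 0 in both virgin libraries and in gd6.5 2, and *Cd14* was at 0 in virgin 1. *Ctss*, *Cd74*, *Apoe* and *C1qb* were highest in virgin 1, at 143, 64.2, 9.48 and 3.61 RPKM, and *Cd68* in virgin 2, at 23.2 RPKM. Of 12 T cell markers, 6 passed in each library, with sums of 657 and 495 RPKM against 450 and 326 RPKM, and *Cd4*, *Cd8a* and *Cd8b1* were at 0 in all 4. *Cd3g* and *Cd3d* were at 183 and 81.5 RPKM in virgin 1, above virgin 2 and both gd6.5 libraries, while *Cd3e* was at 0 in both virgin libraries. B cell markers summed to 507 and 225 RPKM against 142 and 247 RPKM, mostly from *Ighm*. *Ms4a1* and *Pax5* were at 0, while *Igkc* and *Cd79b* were at 36.9 and 5.03 RPKM in virgin 1 and at 0 at gd6.5. Of 15 markers of ILC1s and circulating NK cells, 11 and 8 passed in virgin cells and 6 and 7 at gd6.5, with sums of 714 and 1149 RPKM against 555 and 453 RPKM, and *S1pr5* was at 0 in 3 of the 4. Neutrophil and mast cell markers summed to at most 13.7 RPKM, stromal and decidual markers to at most 7.42 RPKM, and epithelial and endothelial markers to between 32.5 and 95.3 RPKM, led by *Pecam1* and *Muc1* in virgin 1 and by *Pecam1* and *Epcam* in the others. The part of these cells in the differences below was not tested. In bulk libraries of this kind, fewer cells of a type and less RNA per cell cannot be told apart.

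The tables held between 18188514 and 22956216 counts per library for the virgin and gd6.5 groups. The virgin libraries stood further apart than the others. Their log2 levels differed by a median of 0.36 per gene, against 0.18 between the gd6.5 libraries and 0.17 between the gd8.5 libraries, and 533 of 4499 genes tested differed by more than 1 on the log2 scale, against 101 and 84. Virgin 1 had also been counted on another set of gene models, with 55573 genes rather than 54446, and 305 of the genes tested had another length there. The count tables of virgin 1, virgin 2 and the gestation libraries carry library codes of different kinds, whose meaning is not given, and anything tied to those codes cannot be told apart from pregnancy.

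At gd6.5, several genes of cell division, nucleotide and amino acid synthesis and ribosome assembly were called higher than in virgin trNK cells, while several interferon-response genes and genes of cytokines, NK receptors and adaptors were called lower. Calls required a fold change above 2 and, in edgeR's quasi-likelihood test with Benjamini-Hochberg adjustment, an adjusted p below 0.05. By this rule 278 of 4499 genes (6.18%) were called, 143 higher (3.18%) and 135 lower (3%) at gd6.5. The median log2 fold change was 1.35 for the genes called higher and -1.5 for those called lower. The adjusted p of the called genes ran from 0.014 to 0.0494, so all calls lay close to the threshold. In each of the 278, both gd6.5 libraries lay beyond both virgin libraries, which was also so for 1416 of all genes tested in the upward direction (31.5%) and for 1288 in the downward direction (28.6%).

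Each gene was then set against either virgin library alone. The sign of the difference was the same against both for 3252 of 4499 genes (72.3%). Against virgin 1, 449 genes were higher and 400 lower by more than 1 on the log2 scale, and against virgin 2, 310 and 251 were. Only 149 genes were higher, and 144 lower, by that much against both, while 9 were that much higher than virgin 1 and lower than virgin 2, and 3 the reverse. A fit with a lone virgin library assumes that it varies like the gd6.5 and gd8.5 pairs. Those pairs lay closer together (median gap 0.18 and 0.17, against 0.36 between the virgin libraries). Calls in such fits, here and below, therefore take no account of the spread between virgin libraries. Of the called genes, 209 (4.65% of the genes tested) were also called without virgin 1 and without virgin 2, and these comprised 111 higher (2.47%) and 98 lower (2.18%).

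**Figure D1:**
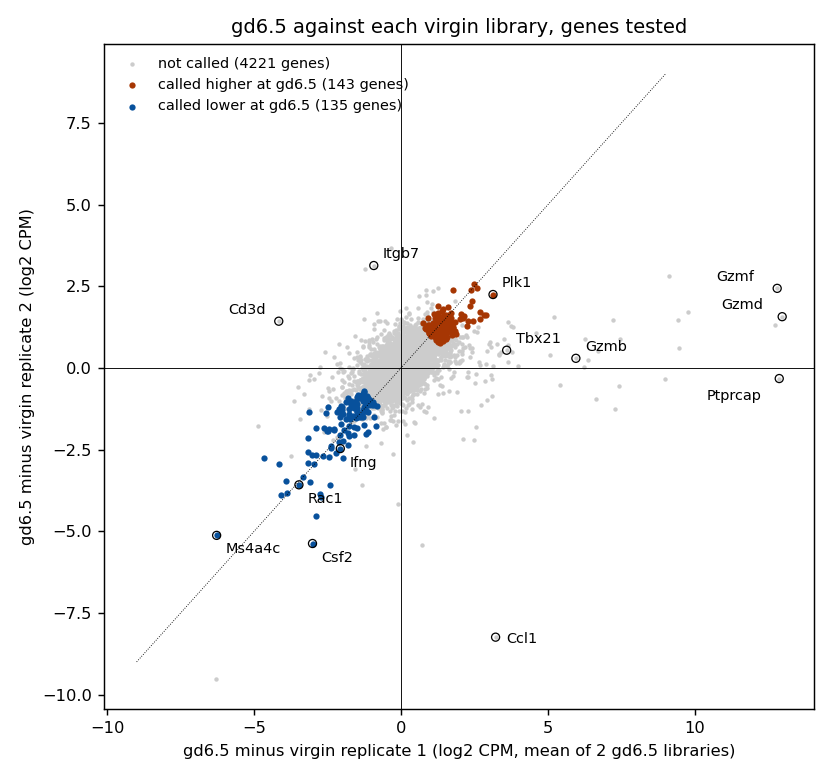
Difference of each of the 4499 genes tested between the mean of the 2 gd6.5 libraries and virgin 1 (x axis) or virgin 2 (y axis), both as log2 CPM, with genes called higher in red, called lower in blue and a dotted line where both differences are equal. Called genes lie along the diagonal, while Gzmb, Gzmd, Gzmf and Ptprcap lie far to the right, and Ccl1 lies above virgin 1 and below virgin 2.

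The number of calls also turned on which libraries entered the fit. With the 4 virgin and gd6.5 libraries alone edgeR called 0 genes after adjustment, and 462 at an unadjusted p below 0.05 with the same fold limit, and the fit also called 0 genes without gd6.5 1, gd6.5 2, gd8.5 1 or gd8.5 2 (349 to 552 at an unadjusted p). Without virgin 1 it called 449 genes and without virgin 2 783, with the same 2 residual degrees of freedom as these fits. On all 6 libraries, DESeq2 called 461 genes and limma voom 356.

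A gene was tested if it passed 10 RPKM in both libraries of at least 1 group, so a gene that passed only where it was high had to differ. Of the 4499, 383 passed only at gd6.5 and 143 only in virgin cells, and over the 3313 that passed in both, 69 were called higher and 73 lower. The same restriction left 5 calls of DNA replication over 23 genes (median log2 fold change 0.59), 6 of nucleotide synthesis over 18 (0.96), 1 of mitosis over 13 (0.88), 3 of ribosome assembly over 24 (0.80), 5 of amino acid supply over 16 (0.83), 3 of the interferon response over 11 (-0.69), 5 of NK receptors over 33 (-0.82) and 1 of apoptosis and survival over 9 (0.34). It left 0 calls of cytolysis over 13 genes, 0 of lysosomes and membrane traffic over 19, and the 1 lower call of cell cycle control over 11, beside the counts over all tested members given below. The 1 call of apoptosis and survival was *Casp1*, whose gene model differed in length.

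Among called genes with a name, the 12 largest rises were of *Plk1*, *Tubb6*, *Ddx54*, *Shmt1*, *Bub1b*, *Uhrf1*, *Ccnb1*, *Mybbp1a*, *Kif20a*, *Asns*, *Lonp1* and *Rpusd1*. *Plk1*, a kinase that drives entry into mitosis (chromosome 7, 122159439 to 122169873, mm10), stood at 5.91 and 10.9 RPKM in virgin 1 and 2 and at 74.6 and 41.3 RPKM in gd6.5 1 and 2. The gd6.5 levels lay far above both virgin levels (log2 fold change 2.70 ± 0.47 SE, adjusted p = 0.0309). *Ccnb1*, the cyclin partner of the mitotic kinase, was read at 6.67 and 15.1 RPKM in the virgin libraries and at 65.3 and 31.7 RPKM at gd6.5. Its groups did not overlap either, although its libraries spread widely within each group (log2 fold change 2.07 ± 0.48, adjusted p = 0.0484). *Bub1b*, a kinase of the spindle checkpoint, went from 2.74 and 6.42 RPKM to 20.9 and 21.2 RPKM. *Uhrf1*, which keeps DNA methylated through replication, went from 4.74 and 6.46 RPKM to 24.9 and 26.2 RPKM. Both gd6.5 libraries held nearly the same level of these 2 genes, and both were above either virgin library. *Tubb6*, *Kif20a* and *Rpusd1* belonged to the genes whose length differed between the gene-model sets. *Plk1*, *Ddx54*, *Bub1b*, *Uhrf1*, *Kif20a* and *Rpusd1* passed the filter only at gd6.5, so the filter partly set their rise.

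Other large rises were outside the cell cycle. *Ddx54*, an RNA helicase of the nucleolus, was at 2.44 and 3.19 RPKM in virgin cells and at 14.4 and 13.6 RPKM at gd6.5. *Mybbp1a*, a nucleolar protein that binds Myb, was at 10.2 and 6.58 RPKM and then at 36.8 and 37.2 RPKM. *Lonp1*, the main protease of the mitochondrial matrix, was at 5.02 and 10.1 RPKM and then at 30.4 and 27.7 RPKM. Replicates of gd6.5 lay close together for all 3 genes, and none of the 3 overlapped with the virgin libraries.

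**Figure D2:**
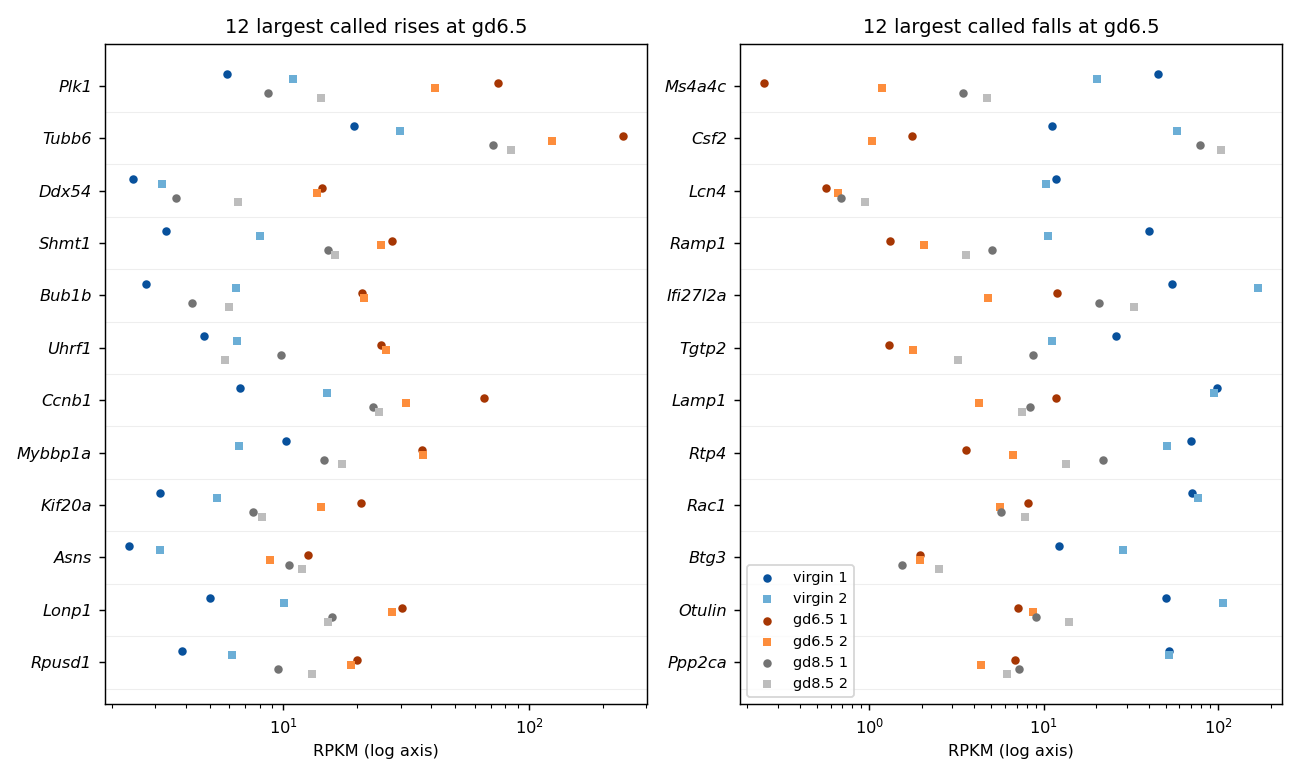
Level of the 12 called genes with the largest rises (left) and the 12 with the largest falls (right) at gd6.5, in RPKM on a log axis, with 1 point for each of the 6 libraries. The gd6.5 points (red and orange) lie beyond both virgin points (blue) in every row, and for Lamp1, Rac1, Otulin and Ppp2ca the gd8.5 points (grey) lie close to the gd6.5 points.

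Several genes of DNA replication were higher at gd6.5. Of 46 listed genes, 32 were tested, 7 were called higher and 0 lower, and the median log2 fold change was 0.74, beside -0.02 over all genes tested. It was 0.85 against virgin 1 and 0.63 against virgin 2, so either library gave the direction. The MCM helicase, which unwinds DNA at the fork, supplied most calls. *Mcm2* stood at 13.8 and 13.99 RPKM in the virgin libraries and at 45.0 and 46.0 RPKM at gd6.5. The 2 libraries of each group nearly coincided, 3.08-fold apart between groups (log2 fold change 1.62 ± 0.15, adjusted p = 0.0188). *Mcm5* was at 30.2 and 30.6 RPKM and then at 106 and 105 RPKM, again with near-equal replicates (log2 fold change 1.71 ± 0.19, adjusted p = 0.0256). *Mcm3* rose by 1.47 ± 0.19 and *Mcm4* by 1.15 ± 0.23 on the log2 scale, and without virgin 1 the change of *Mcm4* was 0.93, under the fold limit. *Pold1*, the catalytic subunit of DNA polymerase delta, rose by 1.71 ± 0.38, and *Cdc45*, which joins the helicase, by 1.48 ± 0.29. *Pold1* passed the filter only at gd6.5. *Pcna*, the clamp of the polymerases, was among those not called, at 107 and 130 RPKM in virgin cells and 137 and 131 RPKM at gd6.5.

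Nucleotide synthesis and the folate cycle that feeds it gave the most edgeR calls among the lists that were higher. Mitosis gave more with DESeq2 (13 against 9) and with limma voom (10 against 9). Of 25 listed genes, 20 were tested, 8 were called higher, all 8 also without either virgin library, and the median log2 fold change was 0.97. *Shmt1*, the cytosolic enzyme that loads carbon units onto folate, was at 3.34 and 8.02 RPKM in virgin cells and at 27.7 and 25.0 RPKM at gd6.5. Its mitochondrial counterpart *Shmt2* was at 35.0 and 32.1 RPKM and then at 99.4 and 82.7 RPKM. Both were above both virgin libraries, by a log2 fold change of 2.13 ± 0.41 for *Shmt1* and 1.35 ± 0.17 for *Shmt2*. The folate enzymes *Mthfd1* and *Mthfd2* rose by 1.42 ± 0.23 and 1.34 ± 0.24. *Impdh1*, which commits purines to guanine nucleotides, rose by 1.44 ± 0.21, and *Rrm1*, the large subunit of ribonucleotide reductase, by 1.39 ± 0.31. *Tyms*, which makes thymidylate, was not called, at 19.6 and 20.6 RPKM in virgin cells and 34.1 and 22.5 RPKM at gd6.5.

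Mitotic genes showed a wider gap between the virgin libraries. Of 46 listed genes, 31 were tested and 5 were called higher by edgeR (15 at an unadjusted p, 13 by DESeq2 and 10 by limma voom). *Plk1*, *Bub1b* and *Kif20a* were called and were among 8 of the 31 that passed the filter only at gd6.5. The calls, directions and median of the tested members are thus partly set by the filter. The median log2 fold change was 1.14, but 1.67 against virgin 1 and 0.69 against virgin 2. *Aurkb*, the kinase of the chromosomal passenger complex, was at 14.7 and 12.5 RPKM in the virgin libraries and at 50.1 and 29.4 RPKM at gd6.5 (log2 fold change 1.46 ± 0.30, adjusted p = 0.0392). *Top2a*, which untangles chromosomes, was not called, at 9.90 and 11.9 RPKM and then 23.4 and 15.7 RPKM. *Cdk1*, the mitotic kinase, stood at 9.10 and 18.7 RPKM in virgin cells and at 34.4 and 22.6 RPKM at gd6.5, and was not called either. *Mki67*, which encodes the proliferation marker Ki-67, did not pass the filter on level. It was read at 4.44 and 8.70 RPKM in virgin 1 and 2 and at 10.2 and 6.55 RPKM in gd6.5 1 and 2, so its groups overlapped. Among 13 tested genes of cell cycle control, 1 was called higher and 1 lower, beside 3.18% and 3% of all genes tested. The higher one, *Uhrf1*, passed the filter only at gd6.5. The lower one, *Btg1*, an antiproliferative gene, was at 160 and 112 RPKM and then at 37.3 and 67.5 RPKM.

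Some genes of ribosome assembly rose as well. Of 30 tested, 5 were called higher and 24 lay above both virgin libraries, against 3.18% and 31.5% of all genes tested, with a median log2 fold change of 0.80. *Gar1*, of the particles that pseudouridylate ribosomal RNA, was at 13.0 and 12.1 RPKM in virgin cells and at 34.5 and 34.5 RPKM at gd6.5. *Polr1b*, a core subunit of RNA polymerase I, was at 4.91 and 4.36 RPKM and then at 12.6 and 12.4 RPKM, and it passed the filter only at gd6.5. The replicates of both groups nearly coincided for these genes, and *Fbl*, the ribosomal RNA methyltransferase fibrillarin, rose by 1.20 ± 0.23 on the log2 scale (0.94 without virgin 2). *Myc* itself was not called, at 77.0 and 80.0 RPKM in virgin cells and 66.5 and 108 RPKM at gd6.5. The cytosolic ribosomal proteins did not follow. Of 41 tested, 0 were called by edgeR, by DESeq2, by limma voom or at an unadjusted p. In the lower direction lay 40, against 2303 of the 4499 genes tested, and below both virgin libraries 32, against 28.6% of the genes tested. Their median log2 fold change was -0.39, and their share of all counts was 6.24% and 6.998% in virgin cells and 4.93% and 5.87% at gd6.5.

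Genes of amino acid supply were among the rises, with 7 of 21 tested members called higher and 0 lower, and a median log2 fold change of 0.78. *Asns*, which makes asparagine, was at 2.36 and 3.16 RPKM in virgin cells and at 12.6 and 8.83 RPKM at gd6.5 (log2 fold change 1.87 ± 0.32, adjusted p = 0.0309). *Phgdh*, the first enzyme of serine synthesis, was at 80.1 and 96.3 RPKM and then at 263 and 195 RPKM (log2 fold change 1.29 ± 0.20, adjusted p = 0.0289). In both genes each gd6.5 library exceeded either virgin library by more than the virgin libraries differed. The transfer RNA synthetases *Aars*, *Iars*, *Vars* and *Wars* rose by 1.52 ± 0.23, 1.47 ± 0.24, 1.32 ± 0.19 and 1.25 ± 0.27 on the log2 scale (*Wars* by 0.98 without virgin 1, under the fold limit). *Aars* passed the filter only at gd6.5. *Slc3a2*, the heavy chain of several amino acid transporters, was not called, at 125 and 94.8 RPKM in virgin cells and 83.9 and 79.9 RPKM at gd6.5.

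In glycolysis 14 of 15 tested genes lay in the higher direction, against 2196 of the 4499 genes tested. Of these 15, 2 were called higher, beside 3.18% of all genes tested, and the median log2 fold change was 0.57. *Eno1*, enolase, was at 208 and 291 RPKM in virgin cells and at 686 and 605 RPKM at gd6.5, a rise of 1.29 ± 0.21 on the log2 scale. *Pkm*, pyruvate kinase, was at 156 and 154 RPKM and then at 382 and 297 RPKM, a rise of 1.05 ± 0.18. The gd6.5 libraries of both genes were clear of both virgin libraries. *Ldha*, lactate dehydrogenase, lay at 365 and 549 RPKM and then at 1039 and 763 RPKM without passing the test. Genes of the respiratory chain and ATP synthase, 44 of 44 tested, had 0 calls by edgeR, DESeq2, limma voom or unadjusted p, and their median was -0.05 on the log2 scale.

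Genes of cholesterol and fatty acid synthesis showed how much the virgin library mattered. Of 16 tested, 0 were called by edgeR (3 at an unadjusted p, 2 by DESeq2 and 1 by limma voom), and 5 passed the filter only at gd6.5. The median log2 fold change was 0.93, and 0.31 over the 4 that passed in both virgin and gd6.5 cells. The 0.93 was made up of 1.80 against virgin 1 and 0.39 against virgin 2. *Mvd*, an enzyme of the mevalonate pathway, stood at 2.60 RPKM in virgin 1 and 16.5 RPKM in virgin 2, and at 39.7 and 26.3 RPKM at gd6.5. As a ratio, the gap between the virgin libraries was larger than that from virgin 2 to either gd6.5 library. *Hmgcs1*, which stands at the head of that pathway, was at 7.02, 25.1, 41.4 and 23.8 RPKM in the same order, with virgin 2 inside the gd6.5 range.

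**Figure D3:**
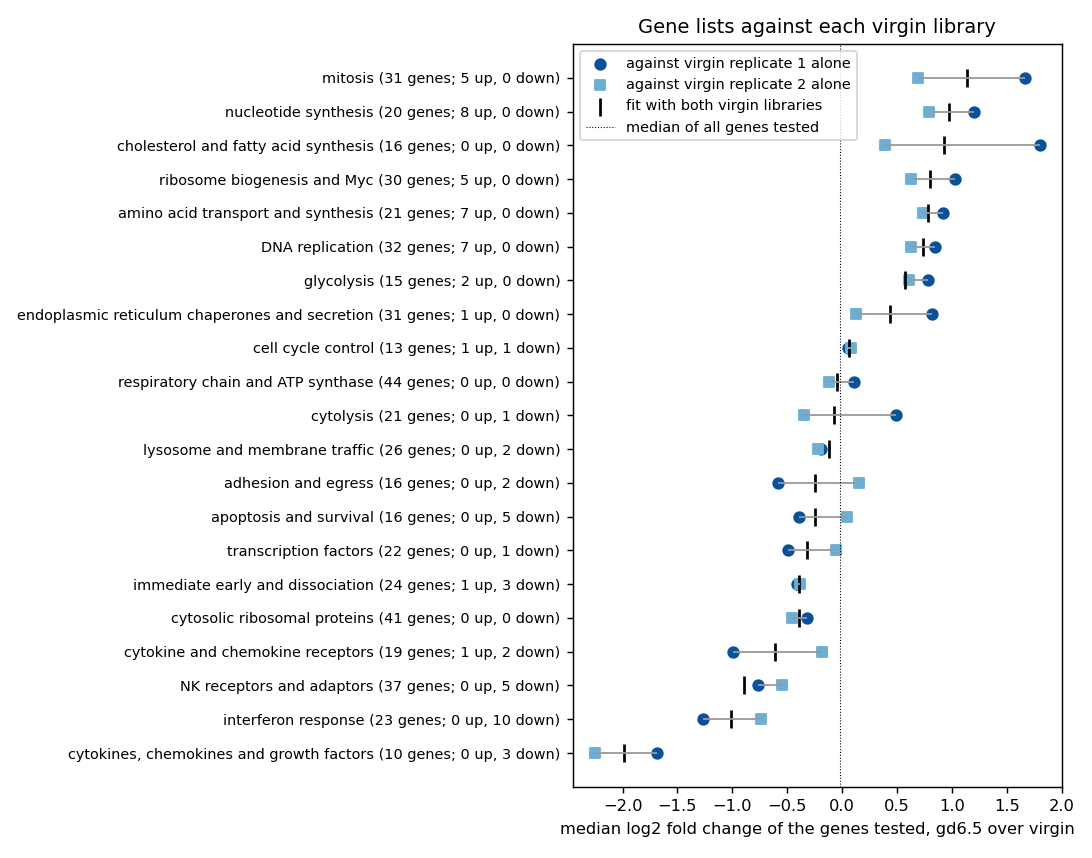
Median log2 fold change of gd6.5 over virgin for the tested genes of each list, in the fit of all 6 libraries (black bars) and against virgin 1 (circles) or virgin 2 (squares) alone, with the number of genes tested and called in brackets and a dotted line at the median of all genes tested. Lists of cell division and biosynthesis lie to the right of the line and interferon, receptor and cytokine lists to the left, and the circles and squares of cholesterol synthesis and of mitosis lie far apart.

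The base composition of transcripts moved with these calls. The longest transcript of the genes called higher had a median GC share of 53.92%, that of the genes called lower 47.44% and that of all genes tested 49.63%. With the genes split into 5 equal bins from the lowest to the highest GC share, the number called higher ran from 2 to 57 and the number called lower from 41 to 20. With GC and length trends of each library fitted as offsets, a setting chosen after seeing the data, 50 genes were called higher (1.11%) and 116 lower (2.58%). Under these offsets 3 genes of DNA replication, 4 of nucleotide synthesis, 2 of mitosis, 3 of ribosome assembly and 3 of amino acid supply were called higher, and 0 of glycolysis (2 at an unadjusted p), while 10 interferon genes and 3 cytokine genes were called lower. *Plk1*, *Mcm2*, *Mcm3*, *Mcm5*, *Shmt2*, *Asns*, *Phgdh* and *Gar1* were among those still called, and *Shmt1*, *Bub1b*, *Ccnb1*, *Ddx54* and *Lonp1* were not. Calls were also lost for *Rpusd1*, *Pold1*, *Cdc45*, *Mcm4*, *Mthfd1*, *Rrm1*, *Aurkb*, *Polr1b*, *Aars*, *Vars*, *Wars*, *Eno1* and *Pkm*, and, outside these lists, for *Il12rb1*, *Icos*, *Hspa1a*, *Icam2*, *Bcl2a1b* and *Casp1*. A lost call did not always go with a smaller change: the log2 fold change went from 2.07 to 2.08 for *Ccnb1*, from 1.39 to 1.32 for *Rrm1* and from -1.97 to -1.95 for *Icam2*, but from 1.71 to 1.23 for *Pold1* and from 1.05 to 0.76 for *Pkm*.

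Interferon-response genes formed the largest group of falls. These genes are switched on when interferons activate factors that bind a DNA element with a repeated GAAA core. Of 39 listed genes, 23 were tested, 10 were called lower and 0 higher, 7 of them also without either virgin library, and the median log2 fold change was -1.01, or -1.27 against virgin 1 and -0.74 against virgin 2. Of the 16 genes below the filter, 12 were lower in both gd6.5 libraries than in both virgin libraries. The share over all genes below the filter was not computed, so this count cannot be read as particular to interferon genes. Among the called genes were *Ifi27l2a*, *Rtp4*, *Zbp1*, *Xaf1*, *Oas1a*, *Irf7*, *Usp18*, *Irgm1* and *Ddx58*.

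Promoter sequence was available from RefSeq for 5 of the 10, and 2 of these, *Oas1a* and *Irgm1*, carried GAAANNGAAA within the 250 bases before the gene start. Both strands were searched, and in each promoter a pair of overlapping matches ended close to the start. They are shown, 5′ to 3′ on the strand of the gene in GRCm38.p6, because they hold the repeated GAAA letters of the element described above. Capitals mark the matches, at chr5:120907526-120907775 (minus strand) for *Oas1a* and chr11:48871421-48871670 (minus strand) for *Irgm1*.
Oas1a: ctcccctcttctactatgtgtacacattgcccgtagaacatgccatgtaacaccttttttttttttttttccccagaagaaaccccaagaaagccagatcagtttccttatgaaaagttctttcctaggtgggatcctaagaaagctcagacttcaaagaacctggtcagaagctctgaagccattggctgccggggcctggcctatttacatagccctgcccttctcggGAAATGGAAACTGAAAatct
Irgm1: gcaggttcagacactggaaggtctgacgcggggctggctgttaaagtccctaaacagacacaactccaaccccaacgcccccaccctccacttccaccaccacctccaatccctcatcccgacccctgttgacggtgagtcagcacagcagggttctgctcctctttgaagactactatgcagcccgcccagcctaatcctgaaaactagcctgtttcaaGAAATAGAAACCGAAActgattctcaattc
The matches began 20 and 14 bases before the start of *Oas1a* and 30 and 24 bases before that of *Irgm1*. The windows of *Xaf1*, *Irf7* and *Ddx58* held no match. The same letters were found in 978 of 32851 promoters of the table (2.98%), and, among genes with a promoter in the table, in 124 of 3419 genes tested (3.63%), in 8 of 18 interferon genes tested (44.44%), in 15 of 99 genes called lower (15.15%) and in 3 of 116 genes called higher (2.59%).

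*Rtp4*, an interferon-induced chaperone of membrane receptors (chromosome 16, 23520291 to 23614222), was at 70.4 and 50.9 RPKM in virgin 1 and 2 and at 3.58 and 6.63 RPKM in gd6.5 1 and 2. Virgin levels were far above both gd6.5 levels, and the fall was 12.7-fold (log2 fold change -3.66 ± 0.42, adjusted p = 0.0256). *Ifi27l2a* was at 54.3 and 169 RPKM and then at 11.9 and 4.79 RPKM, so that the groups stayed apart despite a wide spread in each (log2 fold change -3.81 ± 0.72, adjusted p = 0.0329). *Oas1a*, a sensor of double-stranded RNA whose promoter is printed above, stood at 50.6 and 45.4 RPKM in virgin cells and at 15.7 and 19.4 RPKM at gd6.5 (log2 fold change -1.54 ± 0.21, adjusted p = 0.0289). In each of these genes both virgin values lay above both gd6.5 values. *Xaf1*, a proapoptotic interferon target, and *Zbp1*, a sensor of left-handed nucleic acids, fell by 1.60 ± 0.33 and 1.66 ± 0.36 on the log2 scale. *Zbp1* passed the filter only in virgin cells.

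Other genes of the list were below both virgin libraries without a call by edgeR. *Bst2*, tetherin, was at 91.9 and 82.0 RPKM in virgin cells and at 43.1 and 71.9 RPKM at gd6.5 (log2 fold change -0.69 ± 0.34). *Irf9* was at 34.4 and 17.1 RPKM and then at 7.99 and 11.7 RPKM, and missed the threshold (log2 fold change -1.48 ± 0.38, adjusted p = 0.057) that it passed in DESeq2. The antiviral membrane proteins *Ifitm1*, *Ifitm2* and *Ifitm3* differed between the virgin libraries, as given below with the effector genes.

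Of 34 listed cytokine genes, 10 were tested and 3 were called lower, each also without either virgin library. The median log2 fold change was -1.99, with 8 genes in the lower and 2 in the higher direction. *Ifng*, which encodes interferon gamma (chromosome 10, 118441046 to 118445892), was at 106 and 140 RPKM in virgin cells and at 25.7 and 28.0 RPKM at gd6.5. Libraries of a group lay close together, and the fall was 4.87-fold (log2 fold change -2.28 ± 0.37, adjusted p = 0.0302). *Ccl5*, a chemokine stored by cytotoxic lymphocytes, was at 1618 and 1844 RPKM and then at 281 and 578 RPKM (log2 fold change -2.10 ± 0.35, adjusted p = 0.0305). *Csf2*, which encodes GM-CSF, was at 11.1 and 57.8 RPKM in the virgin libraries and at 1.76 and 1.03 RPKM at gd6.5, where it rested on 32 and 16 counts (log2 fold change -4.69 ± 0.85, adjusted p = 0.0311). For both genes either virgin level was above either gd6.5 level, although the virgin levels of *Csf2* lay far apart. The chemokines *Xcl1* and *Ccl3* were below both virgin libraries and were called by DESeq2 but not by edgeR on all libraries (edgeR called *Ccl3* without either virgin library), *Xcl1* at 3590 and 1086 RPKM and then 621 and 804.3 RPKM, and *Ccl3* at 37.6 and 180 RPKM and then 16.9 and 15.2 RPKM. *Ccl4* was at 77.0 and 2026 RPKM and then at 415 and 516 RPKM, above virgin 1 and below virgin 2, and *Ccl1* and *Spp1*, given below, also turned direction with the virgin library.

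Of 37 tested NK receptors and adaptors, 5 were called lower. The fold change lay in the lower direction for 35, against 2303 of the 4499 genes tested, and 20 lay below both virgin libraries, against 28.6% of the genes tested. The median log2 fold change was -0.89, and of the called genes *Ncr1* and *Klrb1f* were also called without either virgin library, while *Hcst*, *Tyrobp* and *Klra9* changed by -0.98, -0.84 and -0.81 without virgin 1, under the fold limit. *Ncr1* fell 2.04-fold (log2 fold change -1.03 ± 0.15, adjusted p = 0.0289), in the levels given above, with replicates of each group close together. *Klrb1f*, a C-type lectin-like receptor of the NK gene complex, was at 375 and 109 RPKM in virgin cells and at 38.1 and 54.8 RPKM at gd6.5. *Hcst* (DAP10) and *Tyrobp* (DAP12), the adaptors through which activating receptors signal, stood at 466 and 287 RPKM and at 6671 and 5422 RPKM in virgin cells. At gd6.5 *Hcst* was at 131 and 178 RPKM and *Tyrobp* at 2867 and 3557 RPKM, below both virgin libraries, with log2 fold changes of -1.38 ± 0.28 and -1 ± 0.18. *Klra9*, a Ly49 receptor, fell by 1.05 ± 0.21, and since the Ly49 and Klrb1 genes are close copies of one another, reads may have been shared among them. With the GC and length offsets edgeR called 0 of the 37 (6 at an unadjusted p). *Klrk1* (NKG2D) and *Klrc1* (NKG2A) differed more between the virgin libraries, at 362 and 91.9 RPKM and at 576 and 75.4 RPKM, than virgin 2 did from gd6.5, at 120 and 154 RPKM and at 48.4 and 59.4 RPKM.

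**Figure D4:**
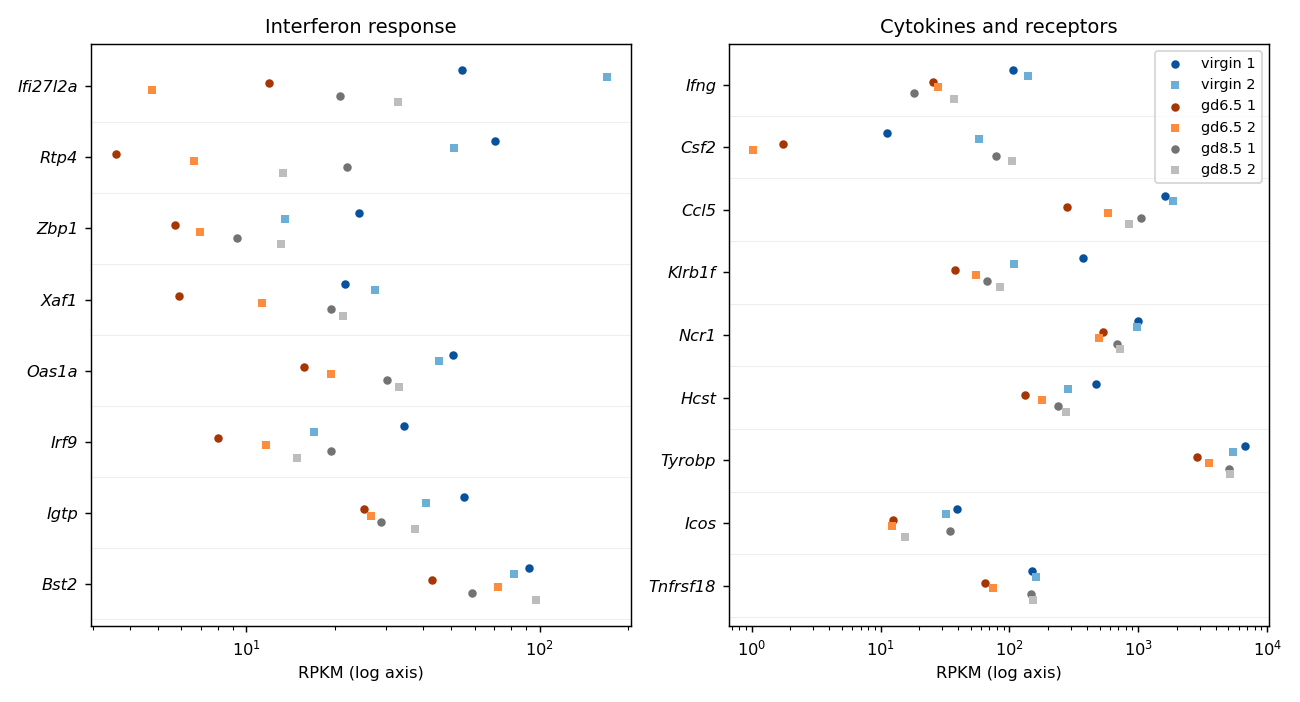
Level of 8 interferon-response genes (left) and 9 cytokine, receptor and adaptor genes (right) in the 6 libraries, in RPKM on a log axis. The 2 gd6.5 points lie below both virgin points in every row, and at least 1 gd8.5 point of Irf9, Bst2, Csf2, Icos and Tnfrsf18 lies above the lower virgin point.

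Among 19 tested receptors of cytokines and chemokines, or costimulators of the same families, 1 was called higher and 2 lower, beside 3.18% and 3% of all genes tested. *Il12rb1*, a chain of the interleukin 12 receptor, was at 8.92 and 11.4 RPKM in virgin cells and at 31.4 and 26.0 RPKM at gd6.5 (log2 fold change 1.41 ± 0.22, adjusted p = 0.0289). The costimulator *Icos* was at 39.3 and 32.1 RPKM and then at 12.4 and 12.2 RPKM (log2 fold change -1.62 ± 0.37, adjusted p = 0.0474). *Tnfrsf18*, which encodes GITR, was at 149 and 160 RPKM and then at 64.9 and 74.6 RPKM (log2 fold change -1.23 ± 0.15, adjusted p = 0.0256). The groups did not overlap for these 3 genes, and replicates lay close together. With the GC and length offsets edgeR gave *Il12rb1* a log2 fold change of 1.04 (adjusted p = 0.0626) and *Icos* one of -1.64 (adjusted p = 0.0546), so neither was called, although the change of *Icos* was no smaller. *Il2rb*, the receptor chain for interleukin 15, was not called, at 435 and 290 RPKM and then 495 and 544 RPKM.

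Of 22 transcription factors tested, 1 was called lower and 0 higher, beside 3% and 3.18% of all genes tested, and the median was -0.32 on the log2 scale. *Eomes* was at 66.0 and 33.9 RPKM in virgin cells and at 55.2 and 65.3 RPKM at gd6.5, inside the virgin range. *Tbx21*, which encodes T-bet, was at 4.75 RPKM in virgin 1 and 39.8 RPKM in virgin 2, and at 57.7 and 65.9 RPKM at gd6.5. *Tcf7*, a factor of early NK cells, ran the other way, at 78.6 and 12.7 RPKM and then at 4.67 and 9.51 RPKM. In both genes virgin 1 stood apart from the other 3 libraries.

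Among called genes with a name, the 12 largest falls were of *Ms4a4c*, *Csf2*, *Lcn4*, *Ramp1*, *Ifi27l2a*, *Tgtp2*, *Lamp1*, *Rtp4*, *Rac1*, *Btg3*, *Otulin* and *Ppp2ca*, all also called with the GC and length offsets. All but *Csf2*, *Ifi27l2a* and *Rtp4* passed the filter only in virgin cells, where they were high. For those genes the filter partly set the fall. *Ms4a4c*, a gene of the Ms4a family of membrane proteins, was at 45.2 and 20.4 RPKM in virgin cells and at 0.251 and 1.18 RPKM at gd6.5 (log2 fold change -5.62 ± 0.81, adjusted p = 0.0289). *Rac1*, a small GTPase that drives actin remodelling (chromosome 5, 143503634 to 143528036), was at 70.9 and 76.3 RPKM and then at 8.14 and 5.62 RPKM. Its virgin libraries nearly coincided, and the fall was 11.3-fold (log2 fold change -3.50 ± 0.28, adjusted p = 0.014). *Ppp2ca*, the catalytic subunit of protein phosphatase 2A, was at 52.5 and 52.6 RPKM and then at 6.82 and 4.38 RPKM (log2 fold change -3.32 ± 0.26, adjusted p = 0.014). *Lamp1*, the lysosomal membrane protein that reaches the cell surface when NK cells degranulate, was at 98.5 and 94.8 RPKM and then at 11.8 and 4.24 RPKM (log2 fold change -3.67 ± 0.48, adjusted p = 0.0279). For each of these 3 genes the virgin libraries lay close together and both gd6.5 libraries far below them, while *Rac2*, the GTPase of blood cells, was at 982 and 858 RPKM and then 778 and 732 RPKM without a call. *Otulin*, which cleaves linear ubiquitin, was at 50.2 and 107 RPKM in virgin cells and at 7.16 and 8.65 RPKM at gd6.5, and *Btg3*, an antiproliferative relative of *Btg1*, was at 12.2 and 28.6 RPKM and then at 1.95 and 1.95 RPKM.

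The series holds 4 further libraries of gd6.5 trNK cells, labelled 0 h (2 of them 0 h with IL-21) and made with another cDNA kit. For 10 of the 12 largest called falls and 11 of the 12 largest called rises, all 4 lay on the virgin side of both gd6.5 libraries. The share of all genes tested that did so was not computed, and the genes were picked by their change in the gd6.5 libraries of the comparison. These counts thus cannot be read as particular to the called genes. For rises, the virgin side means only below both gd6.5 libraries. In the 0 h libraries *Ddx54*, at 0.0111 to 0.114 RPKM, lay below both virgin libraries too, while *Ccnb1*, at 11.5 to 20.6 RPKM, did not. Among uncalled genes, *Ctsd* was at 21.3 to 50.1 RPKM, below every library of the comparison. Uncalled *Pcna* was above them all, at 436 to 632 RPKM. *Rac1* stood at 51.0 to 71.9 RPKM in the 0 h libraries, *Ms4a4c* at 12.9 to 24.0 RPKM, *Otulin* at 20.5 to 65.04 RPKM and *Plk1* at 0.454 to 1.91 RPKM. The levels of these separately made libraries are given side by side without a test, and kit and sorted subgroup cannot be told apart between them and the gd6.5 libraries of the comparison.

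Immediate early genes, which also respond to tissue dissociation, were mixed, with a median log2 fold change of -0.39. Of 24 tested, 1 was called higher, a share like the 3.18% over all genes tested, and 3 lower, beside 3%. *Dusp2*, a nuclear phosphatase of MAP kinases, was at 164 and 137 RPKM in virgin cells and at 21.7 and 17.2 RPKM at gd6.5 (log2 fold change -3.04 ± 0.26, adjusted p = 0.0147). *Jund*, which passed the filter only in virgin cells, fell by 2.27 ± 0.41 and *Rgs2*, a brake on G-protein signalling, by 1.72 ± 0.35 on the log2 scale. *Hspa1a*, a heat-shock chaperone with a near-identical neighbour, was at 30.3 and 27.7 RPKM and then at 74.2 and 55.3 RPKM, a rise of 1.07 ± 0.20. *Fos* and *Junb* were not called by edgeR but were by DESeq2, and *Junb* by limma voom, *Fos* at 149 and 82.5 RPKM and then 45.1 and 67.7 RPKM, and *Junb* at 538 and 551 RPKM and then 208 and 371 RPKM.

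Of 16 tested genes of apoptosis and survival, 5 were called lower and 0 higher, beside 3% and 3.18% of all genes tested. The median log2 fold change was -0.25, and over the 9 that passed the filter in both virgin and gd6.5 cells it was 0.34, with 1 called lower, *Casp1*. *Mcl1*, which blocks apoptosis and on which NK cells depend, was at 19.1 and 26.7 RPKM in virgin cells and at 8.71 and 8.16 RPKM at gd6.5 (log2 fold change -1.53 ± 0.25, adjusted p = 0.0304). The related survival genes *Bcl2a1d* and *Bcl2a1b*, near-identical copies whose reads may have been shared, fell by 2.27 ± 0.32 and 1.81 ± 0.41 (without virgin 1, *Bcl2a1b* had an adjusted p of 0.0518). *Casp4*, an inflammatory caspase that passed the filter only in virgin cells, fell by 1.88 ± 0.28, from 24.8 and 19.8 RPKM to 5.36 and 7.49 RPKM, and *Casp1* by 1.42 ± 0.26. *Casp1* had another length in virgin 1, and in RPKM, which takes the length into account, it went from 57.6 and 75.6 to 39.7 and 38.3. In RPKM each virgin level was thus less than 2-fold above either gd6.5 level. The call of *Casp1* rested on counts that were not adjusted for length. *Bcl2* was at 21.8 and 19.0 RPKM and then at 25.1 and 43.4 RPKM without a call.

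The effector genes that the study followed through gestation were not called at gd6.5 in the fit of all libraries, and in most of them virgin 1 stood apart. *Prf1*, perforin, was at 134 RPKM in virgin 1 and 515 RPKM in virgin 2, and at 926 and 638 RPKM at gd6.5. Both gd6.5 levels were above both virgin levels, and the difference did not pass (log2 fold change 1.19 ± 0.59, adjusted p = 0.212). *Gzmb*, granzyme B, was at 173 RPKM in virgin 1 but at 8742 RPKM in virgin 2, close to the 12990 and 10010 RPKM of gd6.5 (log2 fold change 1.28 ± 1.32, adjusted p = 0.535). *Gzma* was at 270 and 4136 RPKM in virgin cells and at 3579 and 1359 RPKM at gd6.5, so both gd6.5 values lay between the virgin values. *Gzmc* likewise lay between, at 22.4 and 8387 RPKM and then at 4115 and 3353 RPKM. *Gzmd*, *Gzme* and *Gzmf*, neighbouring and similar granzyme genes, had 0 counts in virgin 1 and stood at 280, 303 and 143 RPKM in virgin 2. At gd6.5 their levels were 1246 and 628 RPKM, 1020 and 622 RPKM, and 1089 and 622 RPKM, above virgin 2 in both libraries, and with adjusted p of 0.411, 0.452 and 0.26 edgeR called none on all libraries. Against virgin 2 alone, *Gzme* and *Gzmf* were higher by 1.36 and 2.501 on the log2 scale. *Gzmg*, also at 0 in virgin 1 and at 70.5 RPKM in virgin 2, was at 150 and 23.4 RPKM.

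*Spp1*, which encodes osteopontin, a growth-promoting factor of these cells, was at 378 RPKM in virgin 1, 5895 RPKM in virgin 2, and 4934 and 2426 RPKM at gd6.5. *Tnfrsf9*, which encodes 4-1BB, was at 123 and 751 RPKM and then at 1137 and 626 RPKM, and *Cd55*, an inhibitor of complement, at 26.2 and 110 RPKM and then at 81.5 and 55.6 RPKM. For these 3 genes at least 1 gd6.5 library lay between the virgin libraries. *Ifitm2* was at 5.19 RPKM in virgin 1, 398 RPKM in virgin 2, and 901 and 401 RPKM at gd6.5, and *Ifitm1* and *Ifitm3* had their lowest level in virgin 1 too, at 1.32 and 2.96 RPKM against 85.1 and 35.9 RPKM in virgin 2. *Il21r*, the receptor chain that the study turned to, was at 49.7 and 46.1 RPKM in virgin cells and at 32.9 and 43.0 RPKM at gd6.5 (log2 fold change -0.42 ± 0.19, adjusted p = 0.173). Over the 21 cytolysis genes tested, 0 were called higher and 1 lower, beside 3.18% and 3% of all genes tested. The lower one, *Lamp1*, passed the filter only in virgin cells. The median log2 fold change was 0.49 against virgin 1 and -0.35 against virgin 2, so the direction turned with the virgin library.

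**Figure D5:**
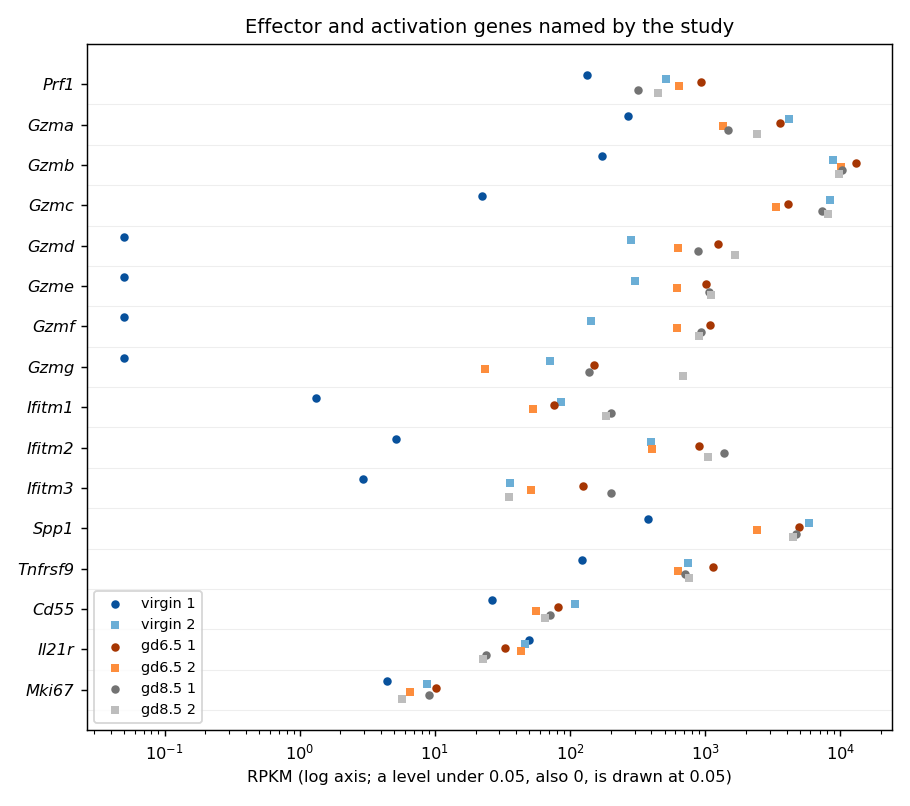
Level of 16 effector, activation and proliferation genes named by the study in the 6 libraries, in RPKM on a log axis on which levels under 0.05, also 0, are drawn at 0.05. Virgin 1 (dark blue) is the lowest library for every gene but Il21r, and for Gzmb, Gzmd, Gzme, Gzmf and Ifitm2 virgin 2 (light blue) lies nearer to every gestation library than virgin 1 does.

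Further genes with a wide gap between the virgin libraries were not effector genes. *Cd3d*, a chain of the T cell receptor complex that early NK cells can also express, was at 81.5 RPKM in virgin 1 and 1.64 RPKM in virgin 2, and at 9.33 and 2.44 RPKM at gd6.5. *Itgb7*, an integrin chain of mucosal homing, was at 70.2 and 4.17 RPKM and then at 54.4 and 28.4 RPKM, so that both gd6.5 libraries lay between the virgin libraries. *Pim2*, a survival kinase, was at 283 and 33.6 RPKM and then at 46.4 and 54.0 RPKM, and *Cd74*, the invariant chain of MHC class II, at 64.2 and 8.93 RPKM and then at 3.11 and 2.41 RPKM. The chemokine gene *Ccl1* was at 0 in virgin 1, at 119 RPKM in virgin 2 and at 0.834 and 0.152 RPKM at gd6.5. *Ptprcap* was also at 0 in virgin 1, against 1011 RPKM in virgin 2 and 888 and 830 RPKM at gd6.5, and is among the genes whose model differed in length.

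The gd8.5 libraries, which share the virgin libraries with this comparison, gave 1 gene called higher (0.0222%) and 18 called lower (0.4%) against virgin. *Plk1* stood at 8.65 and 14.2 RPKM, *Mcm2* at 19.0 and 16.7 RPKM and *Bub1b* at 4.23 and 5.98 RPKM, next to their virgin levels. *Csf2* stood at 78.4 and 104 RPKM, above both virgin libraries, and *Tnfrsf18* at 147 and 151 RPKM, at the virgin level. *Rac1*, *Ppp2ca*, *Lamp1*, *Dusp2* and *Lcn4* were called lower at gd8.5 as well, *Rac1* at 5.66 and 7.83 RPKM and *Ppp2ca* at 7.18 and 6.195 RPKM, close to their gd6.5 levels. *Ifng*, at 18.2 and 37.1 RPKM, was about as low as at gd6.5 but was not called by edgeR (log2 fold change over virgin -2.21 ± 0.37, adjusted p = 0.0836). *Rtp4*, at 22.01 and 13.4 RPKM, lay between its virgin and gd6.5 levels and was not called either (log2 fold change -1.85 ± 0.39, adjusted p = 0.138). The medians at gd8.5 over virgin were 0.23 for DNA replication, 0.40 for nucleotide synthesis, 0.40 for mitosis, -0.46 for the interferon response and -0.31 for NK receptors, beside the 0.74, 0.97, 1.14, -1.01 and -0.89 at gd6.5.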

How the data were processed

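Uterine trNK cells were sorted into SMART-Seq HT (Takara) lysis buffer, and NEBNext libraries were sequenced on a NovaSeq in paired reads of 150 bases. The authors deposited raw counts per gene. The submitters' processing notes name HISAT2 2.1.0, featureCounts, Subread and mm10, whereas the methods name RSEM. All values were whole numbers, and the handling of reads with several matches is not given in the sources used here. Counts rested on 16422380 to 22956216 reads per library, and RPKM was computed with the gene lengths of each table.

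As in the study, a gene had to pass 10 RPKM in each library of at least 1 group (4499 of 54353 shared genes). All 6 libraries of the 3 groups were fitted together in edgeR 4.0.16 (quasi-likelihood test, TMM scaling, common biological coefficient of variation 0.254), in R 4.3.3, and DESeq2 1.42.0 and limma 3.58.1 served as alternatives. Differences from either virgin library used log2 CPM with a prior count of 2. On simulated counts for this comparison (4499 genes) the fit recovered 94.5% of 200 genes changed 4-fold, and 4.55% of its calls were false. The simulation gave every group the same spread for a gene, unlike the wider virgin pair, so neither share carries over to these libraries. The text names the 12 largest rises and falls (without unnamed models), up to 6 called and 3 uncalled defining members per list, the genes the study named and the 5 genes furthest apart each way between the virgin libraries. Some genes that this rule names are not reported here. Exceptions, such as Rac2, Irf7, Usp18, Irgm1, Ddx58 and marker genes, were chosen after their values were seen. The members, lists and rules were chosen with earlier results of these data known. Same-numbered libraries did not deviate together (r = -0.31, 0.11 and -0.03), so the numbers were not treated as pairs.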

Additional observations from a re-analysis of the deposited data

How the results depend on the processing

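Each of the 278 called genes kept its direction under every alternative, 257 of them with a value for genes of equal length, but the number of calls varied. In all 278 both gd6.5 libraries lay beyond both virgin libraries, so a change of direction was hardly possible. Called genes, 278 in the fit of all libraries (143 higher, 135 lower), numbered 461 with DESeq2 (226, 235), 108 with voom library weights (35, 73), 919 of 23601 with no RPKM filter (524, 395), 5 of 13992 with filterByExpr (0, 5; 1291 unadjusted), 488 on unadjusted p (238, 250) and 166 with GC and length offsets, added after seeing the data (50, 116; 147 shared). Without the fold limit 224 were higher. With the 4 virgin and gd6.5 libraries alone edgeR called 0 genes (0 higher, 0 lower; 462 unadjusted). Leaving out 1 library gave 0 to 783 calls, 0 to 425 higher and 0 to 358 lower: 449 without virgin 1 (269, 180), 783 without virgin 2, and 0 without any gd6.5 or gd8.5 library. With the replicate block, which the correlations did not justify, 2 were called (0 higher, 2 lower; 487 unadjusted), and 316 with the gd6.5 numbers crossed, added after seeing the data. Total-count scaling turned the split to 214 higher and 99 lower (313), and 258 were called over the 4194 genes of equal length, added after seeing the data. The cause of these differences was not tested.

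Over 144 named genes, an uncalled one changed direction in 43 instances. *Cd55* (-0.07 on the log2 scale) was at 0.25 with voom and with voom weights, 0.02 with total counts, 0.11 with the replicate block, 0.12 with the crossed block, 1.30 without virgin 2 and 0.19 without gd6.5 2. *Gzmc* (-0.26) was at 3.08 with voom, 3.05 with voom weights, 0.75 with the replicate block, 0.81 with the crossed block, 7.29 without virgin 2 and 0.12 with GC and length offsets, and at -1.25 without virgin 1. *Gzma* (0.08) was at -0.83 without virgin 1 and -0.79 without gd6.5 1, against 3.11 without virgin 2. *Spp1* (0.15) was at -0.76, -0.46 and 3.2 in the same order. *Ifitm1* (0.50) ran from -0.48 without virgin 1 to 5.53 without virgin 2, and *Gzmg* (1.23) from -0.68 without gd6.5 1 to 13.58 without virgin 2, a fitted value against 0 counts that is no bound. Without virgin 1, *Cd3d* (-2.90; -4.18 without gd6.5 1) turned to 1.77, *Pim2* (-1.75; -2.59 without virgin 2) to 0.50, *Ptprcap* (0.68; 16.91 without virgin 2, also against 0 counts) to -0.32, *Klrk1* (-0.82; -1.49 without virgin 2) to 0.49, *Pcna* (0.08; 0.23 without virgin 2) to -0.04 and *Rab7* (-0.01) to 0.03. Without virgin 2, *Ccl1* (-6.95; -8.67 without gd6.5 1) turned to 7.56, *Ccl4* (-1.26; -2.2 without virgin 1) to 2.51, *Itgb7* (0.07) to -0.85, *Eomes* (0.18) to -0.22 and *Itga1* (0.04; 0.37 without virgin 1) to -0.23. *Ccl4* was at 0.15 with voom and 0.16 with voom weights, *Itgb7* at -0.49 without gd6.5 1, and without gd6.5 2 *Myc* (0.06; 0.37 without gd6.5 1) was at -0.32, *Itga1* at -0.08 and *Rab7* at 0.02. With GC and length offsets *Itgb7* was at -0.16, *Eomes* at -0.10, *Myc* at -0.12 and *Itga1* at -0.02, and *Rab7* was at 0.08 with total counts, 0.05 with no RPKM filter and 0.04 with filterByExpr. With 2 libraries per group, changes near 2-fold lay close to the spread, and *Csf2* and *Lcn4* rested on at most 32 counts in each gd6.5 library.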

Other observations

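Of 31 tested chaperones and secretion genes of the endoplasmic reticulum, 1 was called higher, a share like the 3.18% over all genes tested, with 21 in the higher and 10 in the lower direction and a median log2 fold change of 0.44 (0.82 against virgin 1, 0.13 against virgin 2). The called gene was *Sdf2l1*, a partner of the chaperone BiP, at 140 and 189 RPKM in virgin 1 and 2 and at 502 and 397 RPKM in gd6.5 1 and 2, with both gd6.5 libraries above both virgin libraries. *Hspa5*, which encodes BiP, was at 205 and 420 RPKM and then at 559 and 555 RPKM without a call. Among 16 tested genes of adhesion and egress, 2 were called lower, beside 3% of all genes tested. *Icam1*, the ligand of the integrin LFA-1, was at 36.4 and 37.4 RPKM in virgin cells and at 15.0 and 22.3 RPKM at gd6.5, and *Icam2*, of the same family, at 39.9 and 16.1 RPKM and then at 8.62 and 6.56 RPKM. *Icam2* passed the filter only in virgin cells, and it was not called by limma voom or with the GC and length offsets. *Itga1* and *Cd69*, which mark residence in tissue, were not called, *Cd69* at 50.1 and 48.4 RPKM and then at 33.8 and 34.5 RPKM. Of 26 tested genes of lysosomes and membrane traffic, 2 were called, both lower, beside 3% of all genes tested. These were *Lamp1* and *Rac1*, both of which passed the filter only in virgin cells. *Ctsd*, a lysosomal protease, was at 492 and 460 RPKM and then at 649 and 591 RPKM, and *Rab7*, of late endosomes, at 136 and 130 RPKM and then at 143 and 138 RPKM.

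The largest called changes were also looked up one by one in other wild-type trNK libraries of the series. The 4 libraries labelled 0 h were of gd6.5 cells by their protocol (the trNK-V subgroup in the study's text), and 2 of them carry an IL-21 label. Without those 2, 10 of the 12 falls and 12 of the 12 rises lay on the virgin side of both gd6.5 libraries, and *Rac1* was at 70.5 and 59.2 RPKM. The falls that did not were *Ifi27l2a*, at 0 to 6.505 RPKM in the 4 libraries, and *Lamp1*, at 11.3 to 22.5 RPKM. *Csf2* was at 15.98 to 72.4 RPKM, *Tgtp2* at 16.4 to 26.0 RPKM and *Ppp2ca* at 16.01 to 26.6 RPKM. In the same libraries *Pkm* was at 5.404 to 15.2 RPKM and *Hspa1a* at 0, below every virgin and gd6.5 library of the comparison. In 6 libraries of trNK subsets at gd8.5, 3 of the 12 falls and 7 of the 12 rises lay on the virgin side of both gd6.5 libraries in all 6. The share over all genes tested was not computed for any of these counts, and the genes were picked by the gd6.5 libraries of the comparison. The counts can thus be read neither as a repeat of the changes nor as a failure to repeat them. There *Rac1* was at 5.32 to 15.8 RPKM, *Lamp1* at 6.31 to 28.1 RPKM and *Ppp2ca* at 3.22 to 15.7 RPKM.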
